A study of Mus musculus with 6 samples.

Results

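The J-domain co-chaperones of the endoplasmic reticulum (ER) were followed in mouse heart muscle cells that carried an active unfolded protein response factor. The 6 genes, Dnajb9, Dnajb11, Dnajc1, Dnajc3, Dnajc10 and Sec63, were chosen by name as ER-resident DnaJ proteins, and all 6 were among the 23337 genes of the count table. RNA came from sorted cardiomyocytes of wild-type mice aged 4 weeks, each injected on postnatal day 1 with an adeno-associated virus (AAV). There were 2 libraries from AAV-ATF6N, 2 from AAV-XBP1S and 2 from AAV-GFP, the control virus. ATF6N is the usual name of the nuclear fragment of ATF6 and XBP1S that of the spliced, active form of XBP1. All groups, controls included, received a virus and went through heart perfusion and sorting. The promoter of the viruses and whether the 2 libraries of a group came from separate mice are not given in the labels, so a p-value here measures the spread between 2 libraries of a group, and that spread may be technical.

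The chaperone BiP, encoded by Hspa5, is the Hsp70 of the ER lumen. It binds and releases unfolded protein in a cycle of ATP hydrolysis, and a J-domain protein starts that hydrolysis and decides which client BiP is brought to. Each ER J protein serves another task, from import of new chains (Sec63) and folding (Dnajb11, Dnajc3) to disposal of misfolded protein (Dnajb9, Dnajc10). In muscle cells the ER is continuous with the sarcoplasmic reticulum, the calcium store of contraction.

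Total counts per library ran from 67702482 to 112049342, and the filter on low counts left 14587 genes, all 6 co-chaperones among them. AAV-GFP replicate 1 stood apart on the first principal component (a score of -99.6, the other 5 between -14.2 and 46.0), and 0.337% of its counts fell on the ribosomal precursor Rn45s, against 0.0319% to 0.130% in the others. The 2 AAV-ATF6N libraries lay closest together, with a chi-square per degree of freedom over the genes tested of 11.1, against 260.0 in AAV-XBP1S and 678 in AAV-GFP, so in each group the libraries differed by more than counting noise. None of 8 cardiomyocyte markers was at 0 in any library, and their summed level was 114500 to 115200 CPM (read counts scaled to a common normalized library size) in AAV-ATF6N, 82040 to 85950 in AAV-XBP1S and 91730 to 101600 in AAV-GFP. Myh6 carried much of that sum, with means of 65818 CPM in AAV-ATF6N, 35376 in AAV-XBP1S and 32056 in AAV-GFP. Of the 8 markers, 5 lay below 0 in AAV-ATF6N against AAV-GFP. There 3 (Tnnt2, Tnni3 and Myl2) were lower without overlap (26.7% of all genes), and none of the 8 passed edgeR's test. Counts per gene do not separate transcripts of a virus from those of the cell, or spliced Xbp1 from unspliced, so they do not measure delivery. Of the delivered genes, Atf6 averaged 160 ± 2.98 CPM in AAV-ATF6N, 94.0 ± 24.02 in AAV-XBP1S and 57.7 ± 18.1 in AAV-GFP (SD, n = 2 each). Xbp1 averaged 148 ± 4.76 CPM in AAV-ATF6N, 163 ± 3.94 in AAV-XBP1S and 107 ± 12.2 in AAV-GFP. Neither passed edgeR's quasi-likelihood test in its own group against AAV-GFP (adjusted p = 0.126 for Atf6 and 0.307 for Xbp1), and Xbp1 had a log2 fold change of -0.14 in AAV-ATF6N against AAV-XBP1S (95% interval -0.59 to 0.31, edgeR adjusted p = 0.802).

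Dnajc3 and Dnajb11, both soluble co-chaperones of folding in the lumen, were highest in both AAV-ATF6N libraries. Dnajb9 was higher with either factor and highest on average in AAV-XBP1S. Dnajc10 and Sec63 differed little between the groups for their spread, and the AAV-GFP libraries disagreed on Dnajc1 and Dnajc10. No co-chaperone gene passed an adjusted p of 0.05 in edgeR's quasi-likelihood test in any of the 3 comparisons. In AAV-ATF6N against AAV-GFP the count was 0 of 6, where 0.514% of all genes tested passed. It was 0 of 6 in AAV-XBP1S against AAV-GFP (0.315% of all genes) and 0 of 6 in AAV-ATF6N against AAV-XBP1S (0.226%). At an unadjusted p under 0.05 there were 3, 1 and 2 of the 6 in the same order of comparisons, where 13.5%, 11.6% and 13.2% of all genes stood below it. DESeq2, run as an alternative, called 2 (Dnajc3 and Dnajb11), 1 (Dnajb9) and 1 (Dnajc3). Over all 23337 genes of the count table it called 573, 484 and 803 in the same order.

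**Figure D1:**
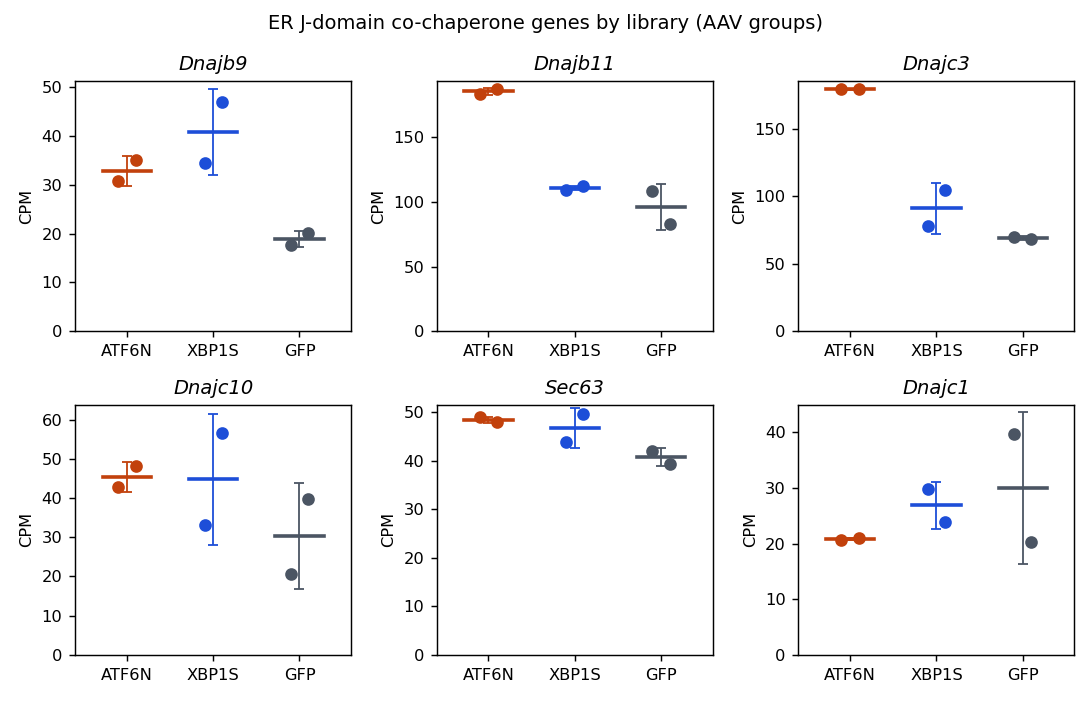
Level of each ER J-domain co-chaperone gene in CPM (vertical axis, starting at 0) in the 2 libraries of AAV-ATF6N, AAV-XBP1S and AAV-GFP. Points are libraries, the thick line their mean and the thin bar 1 SD; Dnajc3 stands at 179.5 and 179 CPM in AAV-ATF6N, above every library of the other groups.

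Dnajc3 encodes a soluble ER protein that binds unfolded chains through repeats of its own and hands them to BiP; it was first described as an inhibitor of the kinase PKR. The gene lies on chromosome 14 at 118937932 to 118981702 (mm10, plus strand), with 12 exons counted. It stood at 179.5 and 179 CPM in AAV-ATF6N, at 77.8 and 105 CPM in AAV-XBP1S and at 70.1 and 67.9 CPM in AAV-GFP. The AAV-ATF6N libraries lay above all others and the AAV-XBP1S libraries above those of AAV-GFP, with no overlap between any groups. The log2 fold change was 1.38 (SE 0.22, a 2.597-fold difference) in AAV-ATF6N against AAV-GFP, with an edgeR adjusted p of 0.0616 over all genes. Against AAV-XBP1S the direct difference was 0.98 (SE 0.21, edgeR adjusted p = 0.118), and AAV-XBP1S against AAV-GFP gave 0.40 (SE 0.21, edgeR adjusted p = 0.530). The authors' deposited table gives Dnajc3 a log2 fold change of 1.38 and an adjusted p of 0.000256 in AAV-ATF6N. Here it passed in that comparison with DESeq2 on all 6 libraries (adjusted p = 1.56e-05), with edgeR without the filter on low counts (0.00597) and with edgeR with a replicate block. It passed as well without AAV-GFP replicate 2, which leaves replicate 1, the library that stood apart, as the sole control. Among the fits that left out 1 library, that fit called the most genes over all in this comparison. Without AAV-GFP replicate 1, or without any 1 of the AAV-ATF6N or AAV-XBP1S libraries, Dnajc3 did not pass. Nor did it pass in edgeR with DESeq2's size factors, robust estimation, an offset for gene length, or the 4 libraries compared alone. Over AAV-XBP1S it passed with DESeq2 (adjusted p = 0.00673), and with edgeR in a fit of the 4 libraries compared alone (0.0424), without AAV-GFP replicate 1 (0.0404) and, barely, without the filter (0.049997).

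Dnajb11 encodes the J protein that binds many newly made chains and works with the small cofactors SDF2 and SDF2L1. It lies on chromosome 16 at 22857845 to 22879634 (mm10, plus strand). Its level was 183 and 187 CPM in AAV-ATF6N, 109 and 112 CPM in AAV-XBP1S and 108 and 83.2 CPM in AAV-GFP. Both AAV-ATF6N libraries lay above the other 4, while the lower AAV-XBP1S library stood just above the higher AAV-GFP library. Dnajb11 in AAV-ATF6N had a log2 fold change of 0.95 (SE 0.21, edgeR adjusted p = 0.155) over AAV-GFP and of 0.74 (SE 0.21, edgeR adjusted p = 0.187) over AAV-XBP1S. In AAV-XBP1S against AAV-GFP it was 0.21, with a 95% interval of -0.28 to 0.70. The authors' deposited table gives 0.96 with an adjusted p of 0.0559 in AAV-ATF6N, and DESeq2 run here on all 6 libraries gave an adjusted p of 0.00835. Over AAV-GFP, Dnajb11 also passed without AAV-GFP replicate 2, which leaves replicate 1, the library that stood apart, as the sole control. Among the fits that left out 1 library, this fit called the most genes over all in AAV-ATF6N against AAV-GFP. Over AAV-XBP1S, Dnajb11 passed in a fit of the 4 libraries compared alone, without AAV-GFP replicate 1 and without AAV-GFP replicate 2.

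The promoters of these 2 genes, shown because their levels stood out with AAV-ATF6N, hold letters of the ER stress response element, to which ATF6 is known to bind together with the factor NF-Y. RefSeq gives a promoter sequence (GRCm38.p6, the build of the counts) for each of the 6 genes, from 250 bases before to 50 after the start site, and each was searched on both strands. The element ERSE (CCAAT, 9 bases of any kind, then CCACG) was present in 1 of 6, that of Dnajc3, and in 39 of 32851 promoters in all (0.119%). The element ERSE-II (ATTGG, 1 base of any kind, then CCACG), whose first 5 letters are CCAAT read on the other strand, was present in 1 of 6, that of Dnajb11, and in 12 of all promoters (0.0365%). Among the BiP partners with a promoter in the table, 2 of 12 held ERSE, Hspa5 being one, and 0 of 12 held ERSE-II. The stretches around the elements follow, 5′ to 3′ along each gene, with the fixed letters of the element in capitals. The Dnajc3 stretch is chr14:118937822-118937851 (plus strand, 110 to 81 bases before the start site). That of Hspa5, shown for comparison, is chr2:34772020-34772049 (plus strand, 70 to 41 bases before it). That of Dnajb11 is chr16:22857842-22857871 (plus strand), with the element 8 to 18 bases into the transcript.
Dnajc3: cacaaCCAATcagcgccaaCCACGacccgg
Hspa5: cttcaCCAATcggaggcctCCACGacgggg
Dnajb11: cccggcggcgATTGGcCCACGcctggctgc

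A match of letters describes the sequence and does not show that a factor bound there. Both ERSE copies share the fixed letters and the spacing of 9 bases between them because the search required them. Dnajc1, Dnajc10, Sec63 and Dnajb9 had neither element in this window.

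Dnajb9 encodes a J protein that feeds misfolded protein into ER-associated degradation and brings BiP to the stress sensor IRE1, which holds that sensor inactive; it is a known target of XBP1S. It lies on chromosome 12 at 44205897 to 44210068 (mm10, minus strand). The level was 30.7 and 35.0 CPM in AAV-ATF6N, 34.6 and 47.1 CPM in AAV-XBP1S and 17.7 and 20.1 CPM in AAV-GFP. All 4 libraries with a factor lay above both AAV-GFP libraries, and the ranges of the factor groups overlapped. Dnajb9 had the largest log2 fold change of the 6 in AAV-XBP1S against AAV-GFP, 1.11 (SE 0.23, 2.16-fold, edgeR adjusted p = 0.167). In AAV-ATF6N against AAV-GFP it was 0.80 (SE 0.23, edgeR adjusted p = 0.270). The direct difference, AAV-ATF6N against AAV-XBP1S, was -0.31 with a 95% interval of -0.86 to 0.24 (edgeR adjusted p = 0.626), so a difference in either direction lies within the interval. DESeq2 run here on all 6 libraries called it in AAV-XBP1S (adjusted p = 0.00518). The authors' deposited tables, each over 4 libraries, give adjusted p-values of 0.158 in AAV-XBP1S and 0.177 in AAV-ATF6N.

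The letters CCACGT, the core that XBP1 and several other factors recognise, were found on either strand in the promoters of 3 of the 6 genes (Dnajb9, Dnajc3 and Sec63). They were found in 8.31% of all promoters and in 10.9% of those of genes tested. Among the BiP partners with a promoter sequence, 0 of 12 held them. The longer element TGACGTGG, whose other strand holds the same core, was found in 0 of 6 and in 0.676% of all. The bases upstream of Dnajb9 are shown because that gene had the largest log2 fold change with AAV-XBP1S, and those of Dnajc3 because that gene had the largest with AAV-ATF6N. Capitals mark CCACGT in both and ERSE in Dnajc3. The stretches are chr12:44210069-44210318 (minus strand) and chr14:118937682-118937931 (plus strand), each the 250 bases before the start site.
Dnajb9: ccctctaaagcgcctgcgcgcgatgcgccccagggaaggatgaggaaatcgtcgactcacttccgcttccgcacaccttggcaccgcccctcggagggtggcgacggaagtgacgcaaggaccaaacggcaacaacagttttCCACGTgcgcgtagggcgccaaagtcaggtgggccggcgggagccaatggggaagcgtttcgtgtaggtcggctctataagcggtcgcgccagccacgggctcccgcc
Dnajc3: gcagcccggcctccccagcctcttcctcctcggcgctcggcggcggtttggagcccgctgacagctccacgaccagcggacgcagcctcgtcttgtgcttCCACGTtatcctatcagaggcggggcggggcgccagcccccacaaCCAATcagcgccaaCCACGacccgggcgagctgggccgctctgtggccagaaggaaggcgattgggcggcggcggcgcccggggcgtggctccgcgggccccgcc

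In Dnajb9 the core lies 108 to 103 bases before the start site, and in Dnajc3 it lies 150 to 145 bases before it, upstream of the ERSE. Sec63 holds the core 22 to 17 bases before its start site.

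Dnajc10 encodes an ER reductase with a J domain and thioredoxin-like domains that opens disulfide bonds of proteins bound for degradation. It lies on chromosome 2 at 80315466 to 80354055 (mm10, plus strand). It stood at 42.7 and 48.1 CPM in AAV-ATF6N, 33.0 and 56.7 CPM in AAV-XBP1S and 20.7 and 39.8 CPM in AAV-GFP. AAV-GFP replicate 1 was the lowest of the 6 libraries, and the AAV-XBP1S libraries lay on either side of AAV-GFP replicate 2. Over AAV-GFP its log2 fold change was 0.59 (SE 0.38, edgeR adjusted p = 0.453) in AAV-ATF6N and 0.57 (SE 0.38, edgeR adjusted p = 0.611) in AAV-XBP1S. Both values moved with the AAV-GFP library used. Without AAV-GFP replicate 2, which leaves replicate 1 as the sole control, the values were 1.15 for either factor, and without AAV-GFP replicate 1 they were 0.19 in AAV-ATF6N and 0.17 in AAV-XBP1S; without AAV-XBP1S replicate 2 that group's value was 0.13.

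Sec63 encodes the membrane J protein of the translocon, the channel through which new chains enter the ER. It lies on chromosome 10 at 42761496 to 42832514 (mm10, plus strand). Its level was the most even of the 6, with 48.9 and 48.0 CPM in AAV-ATF6N, 43.8 and 49.7 CPM in AAV-XBP1S and 42.0 and 39.4 CPM in AAV-GFP. All 4 libraries with a factor lay above both AAV-GFP libraries. Against AAV-GFP the log2 fold change was 0.25 (95% interval -0.20 to 0.70) in AAV-ATF6N and 0.20 (-0.25 to 0.65) in AAV-XBP1S, so the intervals leave out a change of 1 log2 unit in either direction. With an offset that removes a trend of counts with gene length, the AAV-ATF6N value turned to -0.12.

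Dnajc1 encodes a membrane J protein whose cytosolic part binds ribosomes. It lies on chromosome 2 at 18206333 to 18392830 (mm10, minus strand), and 749 of its 8583 counted bases are shared with exons of Mllt10. The library kit does not mark strand, so reads over those bases cannot be assigned to one gene. Dnajc1 had 20.74 and 21.01 CPM in AAV-ATF6N, 29.9 and 23.9 CPM in AAV-XBP1S and 39.6 and 20.4 CPM in AAV-GFP. The AAV-GFP libraries were the highest and the lowest of the 6. Set against AAV-GFP, AAV-ATF6N had a log2 fold change of -0.52 (SE 0.33, edgeR adjusted p = 0.446) and AAV-XBP1S one of -0.16 (SE 0.33, edgeR adjusted p = 0.866). Without AAV-GFP replicate 1 these values turned to 0.03 and 0.40. Without AAV-GFP replicate 2, which leaves replicate 1 as the sole control, they were -0.91 and -0.53. The AAV-ATF6N value passed in that fit, which called the most genes over all in that comparison among the fits that left out 1 library. The direction of Dnajc1 relative to AAV-GFP therefore changed with the control library used.

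**Figure D2:**
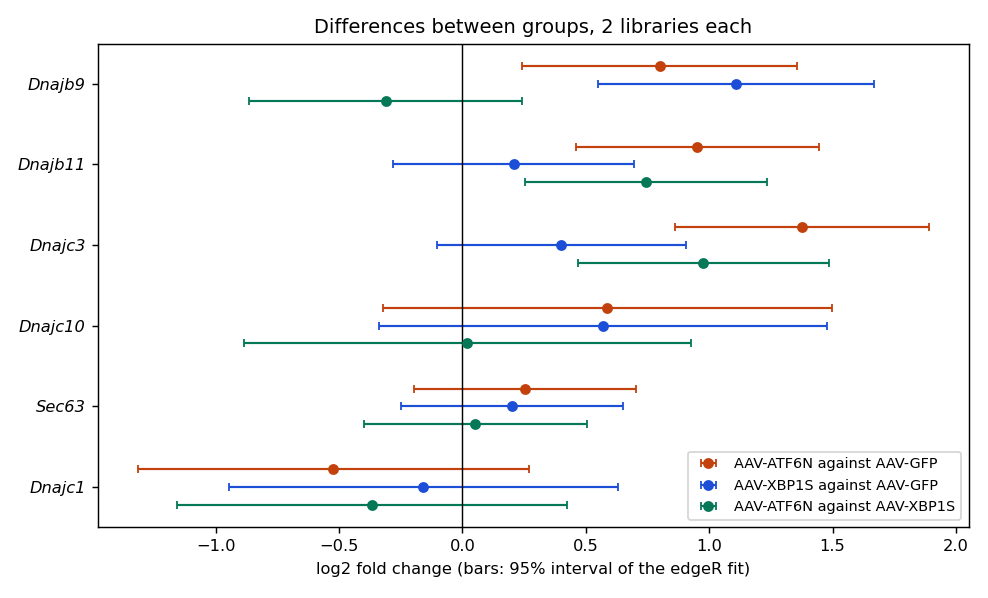
The log2 fold change of each co-chaperone gene (horizontal axis) for AAV-ATF6N and AAV-XBP1S, each against AAV-GFP, and for AAV-ATF6N against AAV-XBP1S, with the 95% interval of the edgeR fit before adjustment over genes. Dnajc3 lies farthest right at 1.38 for AAV-ATF6N, Dnajb9 has the highest value for AAV-XBP1S at 1.11, and the intervals of Dnajc10, Sec63 and Dnajc1 all cross 0.

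Described as a group, 5 of the 6 genes lay above 0 in AAV-ATF6N against AAV-GFP with a median log2 fold change of 0.69, where all genes tested had a median of -0.02. In AAV-XBP1S against AAV-GFP 5 of 6 lay above 0 with a median of 0.30, beside -0.01 over all genes. In AAV-ATF6N against AAV-XBP1S 4 of 6 lay above 0, with a median of 0.04 beside -0.01. The libraries did not overlap, with the first group higher, for 5 of 6 genes in AAV-ATF6N against AAV-GFP, where that held for 27.9% of all genes, and 0 of 6 were lower without overlap (26.7% of all genes). It held for 4 of 6 in AAV-XBP1S against AAV-GFP (19.1% of all genes), with 0 of 6 lower (16.8%). In the direct comparison it held for 2 of 6, Dnajb11 and Dnajc3 (30.1% of all genes), and 1 gene, Dnajc1, was lower without overlap (26.8%). Both comparisons against AAV-GFP share the same control libraries.

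Set per kilobase of counted gene length, so that genes can be compared, Dnajb11 was the most abundant of the 6 in every group, at 57.3 CPM per kb in AAV-ATF6N, 34.2 in AAV-XBP1S and 29.6 in AAV-GFP. Dnajc3 came second in AAV-ATF6N (34.5 CPM per kb) and AAV-GFP (13.3). In AAV-XBP1S Dnajb9 (mean 21.9 CPM per kb, 18.5 and 25.2 in replicates 1 and 2) lay above Dnajc3 (mean 17.6, 14.98 and 20.1) in each library. With the length of GENCODE's principal transcript, an alternative chosen after seeing the data, the order of their means was turned round (16.6 and 17.7). In the other groups Dnajb9 came next after Dnajc3, at 17.6 CPM per kb in AAV-ATF6N and 10.1 in AAV-GFP. Below came Dnajc10 and then Sec63 by the group means. Dnajc10 lay below Dnajb9 in every library. Sec63 lay below Dnajc10 in every library except AAV-GFP replicate 1 (6.96 for Sec63 and 5.11 CPM per kb for Dnajc10). Dnajc1 was last in each group at 2.43, 3.13 and 3.50 CPM per kb in AAV-ATF6N, AAV-XBP1S and AAV-GFP. As a share of the summed level per kb of the 6 genes, Dnajc3 made up 26.4% ± 0.705 in AAV-ATF6N, 18.3% ± 1.28 in AAV-XBP1S and 18.8% ± 0.502 in AAV-GFP (SD, n = 2 each). Dnajb9 made up 13.4% ± 0.92, 22.8% ± 1.80 and 14.4% ± 2.01 in the same groups. The share of Dnajc3 in both AAV-ATF6N libraries, and that of Dnajb9 in both AAV-XBP1S libraries, lay above every library of the other groups; these shares carry no test.

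**Figure D3:**
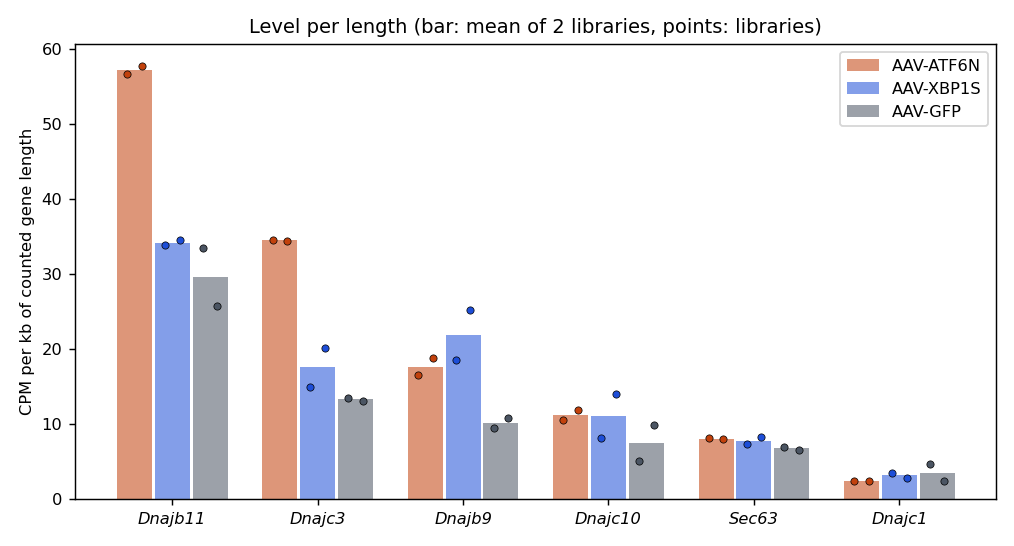
Level of the 6 genes in CPM per kilobase of counted length (vertical axis) in AAV-ATF6N, AAV-XBP1S and AAV-GFP, with bars for the mean of 2 libraries and points for the libraries. Dnajb11 is highest in each group, and Dnajb9 lies above Dnajc3 only in AAV-XBP1S.

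Of 16 partner genes of these proteins in the BiP cycle, 4 rose in AAV-ATF6N against AAV-GFP and none fell by edgeR's test (0.514% of all genes passed). In AAV-XBP1S against AAV-GFP 1 was higher (0.315%), and in the direct comparison 1 was higher (0.226%). DESeq2 called 7, 1 and 4 in the same order. In the direct comparison 9 lay above 0 and 7 below. Hspa5 (log2 fold change 1.43, edgeR adjusted p = 0.0579) and Hyou1 (1.86, edgeR adjusted p = 0.0591) did not pass there. Hspa5 itself had 2941 and 3031 CPM in AAV-ATF6N, 1017 and 1204 CPM in AAV-XBP1S and 1078 and 1227 CPM in AAV-GFP. It rose in AAV-ATF6N (log2 fold change 1.37, SE 0.19, edgeR adjusted p = 0.0462) and had -0.05 (SE 0.19) in AAV-XBP1S. Sdf2l1, the cofactor of Dnajb11, rose with both factors: its mean was 159 ± 8.74 CPM in AAV-ATF6N, 66.9 ± 14.9 in AAV-XBP1S and 15.2 ± 4.06 in AAV-GFP (log2 fold changes 3.39 and 2.14, edgeR adjusted p = 0.00988 and 0.0447). Its relative Sdf2 was at -0.50 (SE 0.28) with AAV-ATF6N and at -0.12 (SE 0.28) with AAV-XBP1S, neither past the test.

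Hyou1, a large Hsp70 relative that exchanges the nucleotide of BiP, rose in AAV-ATF6N (57.0 ± 1.39 CPM against 9.87 ± 2.91 in AAV-GFP, log2 fold change 2.53, edgeR adjusted p = 0.0277), and Hsp90b1, the ER Hsp90, rose there too (1.65, edgeR adjusted p = 0.0357). The other exchange factor, Sil1, had -0.34 (SE 0.24), and Sec62, the translocon partner of Sec63, -0.22 (SE 0.29) in AAV-ATF6N. The sensor genes Ern1 (IRE1) and Eif2ak3 (PERK) had 1.26 (SE 0.60) and 0.08 (SE 0.35) in AAV-ATF6N, and 0.63 (SE 0.59) and 0.35 (SE 0.35) in AAV-XBP1S, with no call. The calls of Hspa5, Hyou1, Sdf2l1 and Hsp90b1 in AAV-ATF6N against AAV-GFP were lost without any 1 of the 4 libraries of AAV-ATF6N and AAV-XBP1S (edgeR adjusted p from 0.0520 to 0.530), except that Sdf2l1 kept its call without AAV-XBP1S replicate 2 (0.0496). The call of Sdf2l1 in AAV-XBP1S was lost without each of these 4 libraries as well, and with robust estimation both it (0.0550) and that of Hspa5 in AAV-ATF6N (0.0605) were lost. With a fit of the 4 libraries compared alone, none of these calls against AAV-GFP held (edgeR adjusted p from 0.0599 to 0.160).

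Set against Hspa5 in the same library and per kilobase, the 6 co-chaperone genes together came to 11.5 and 11.5 CPM per kb for each 100 CPM per kb of Hspa5 in AAV-ATF6N. AAV-XBP1S had 22.2 and 22.8, and AAV-GFP had 17.8 and 14.6. The groups did not overlap, with AAV-ATF6N below AAV-GFP and AAV-XBP1S above it. The summed level itself was 131 ± 3.23 CPM per kb in AAV-ATF6N, 95.6 ± 13.2 in AAV-XBP1S and 70.7 ± 3.44 in AAV-GFP, so that the sum was highest where its ratio to Hspa5 was lowest. Dnajc3 was the one gene whose ratio in AAV-ATF6N lay within the range of AAV-GFP, at 3.08 and 2.98 in AAV-ATF6N with 3.28 and 2.79 in AAV-GFP, while AAV-XBP1S had 3.85 and 4.37. For Dnajb9 the AAV-ATF6N ratios of 1.47 and 1.62 and the AAV-XBP1S ratios of 4.77 and 5.48 stood on either side of AAV-GFP, with 2.30 in both libraries. No model was fitted to these ratios, and the smallest two-sided p of an exact permutation with 2 libraries in each group is 0.333, so they are given as a description.

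**Figure D4:**
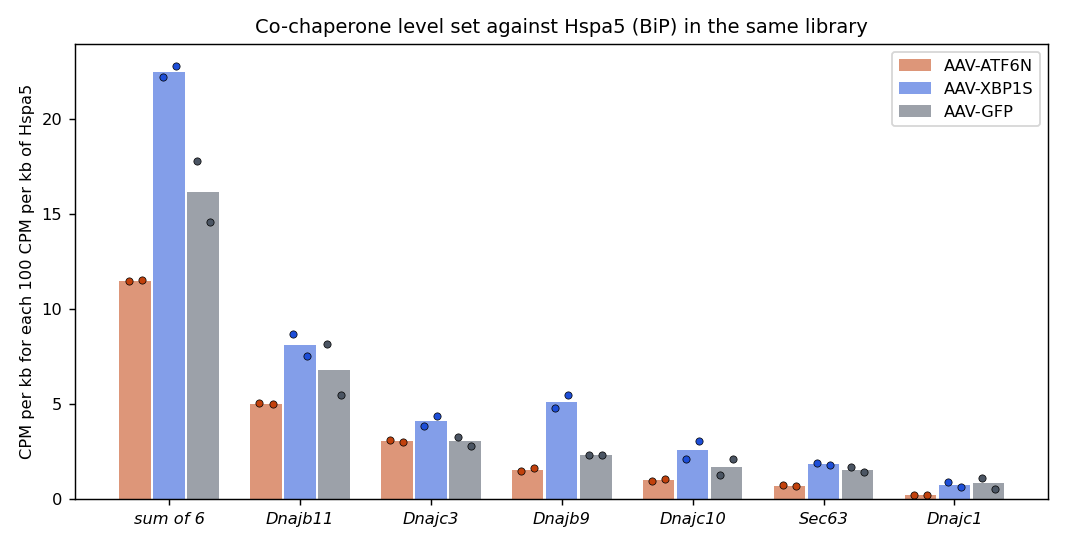
Level per kilobase of the 6 genes together and singly for each 100 CPM per kb of Hspa5 in the same library (vertical axis), with bars for group means and points for libraries. The summed ratio is 11.5 in AAV-ATF6N, 22.5 in AAV-XBP1S and 16.2 in AAV-GFP on average, and Dnajc3 differs least between AAV-ATF6N and AAV-GFP.

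Other J-protein genes were set beside these 6. Of 6 genes for J proteins in the ER membrane outside the list (Dnajb12, Dnajb14, Dnajc14, Dnajc16, Dnajc18 and Dnajc25) none passed edgeR's test in any comparison, none stood at an unadjusted p under 0.05, and DESeq2 called none. Their median log2 fold change was 0.10 in AAV-ATF6N and -0.16 in AAV-XBP1S against AAV-GFP. The widest values were 0.87 (SE 0.46) for Dnajc16 and -0.73 (SE 0.49) for Dnajc25, both in AAV-ATF6N. Of 30 genes for J proteins of the cytosol, nucleus and mitochondria none passed edgeR's test. Of these, 3 in AAV-ATF6N against AAV-GFP (13.5% of all genes), 4 in AAV-XBP1S against AAV-GFP (11.6%) and 2 in the direct comparison (13.2%) stood at an unadjusted p under 0.05. DESeq2 called 0, 0 and 2 of the 30. Their medians were -0.07, -0.16 and 0.08 in the same order. The difference between the ER co-chaperones and these lists was not tested.

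**Figure D5:**
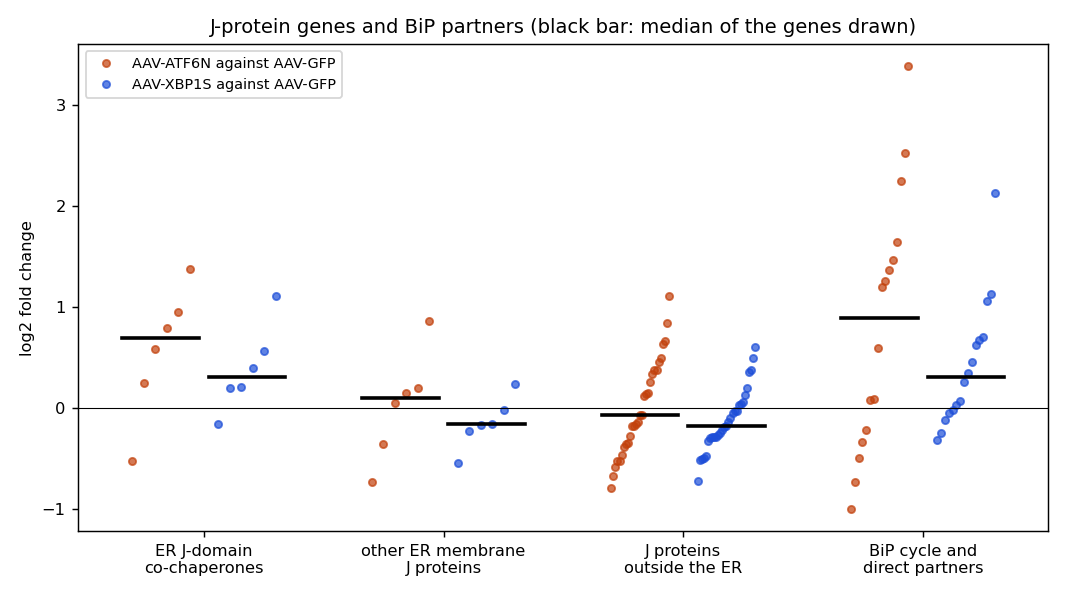
The log2 fold change (vertical axis) of each gene in 4 lists for AAV-ATF6N against AAV-GFP and AAV-XBP1S against AAV-GFP, with a black bar for the median. Dnajc6, which had no count in AAV-GFP, is left out of the drawing; Sdf2l1 is the highest point drawn in both comparisons, at 3.39 and 2.14.

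Markers of other cells moved with the groups as well. The 6 markers of fibroblasts, cells with a large secretory ER, summed to 761 to 796 CPM in AAV-ATF6N, 777 to 913 in AAV-XBP1S and 447 to 574 in AAV-GFP. The 6 endothelial markers summed to 434 to 478 CPM in AAV-ATF6N, 698 to 1095 in AAV-XBP1S and 387 to 702 in AAV-GFP. The 6 macrophage and leukocyte markers summed to 48.1 to 49.25 CPM in AAV-ATF6N, 48.9 to 53.7 in AAV-XBP1S and 29.45 to 34.7 in AAV-GFP, and the 6 markers of smooth muscle and pericytes to 954 to 966, 805 to 851 and 724 to 788. None of the markers in these 4 lists was at 0 in any library, and none passed edgeR's test in any comparison. At an unadjusted p under 0.05 in edgeR stood 3 fibroblast markers in AAV-ATF6N (13.5% of all genes) and 4 in AAV-XBP1S (11.6%) against AAV-GFP, where DESeq2 called 1 and 1. For endothelial markers it was 3 in AAV-ATF6N against AAV-GFP, all lower (Cdh5, Emcn and Tie1), and 3 in AAV-XBP1S against AAV-GFP, all higher (Pecam1, Cdh5 and Emcn), where DESeq2 called 1 and 0. In AAV-ATF6N against AAV-XBP1S all 6 endothelial markers were lower without overlap (26.8% of all genes), with a median log2 fold change of -1.004. Of the 6, 4 stood at an unadjusted p under 0.05 in edgeR (13.2% of all genes) and 3 were called by DESeq2. The 7 proliferation markers summed to 20.99 to 21.99 CPM in AAV-ATF6N, 28.6 to 29.2 in AAV-XBP1S and 2.67 to 3.04 in AAV-GFP, where 1 of them, Ccnb1, was at 0 in replicate 1. In each comparison against AAV-GFP all 7 were higher without overlap, stood at an unadjusted p under 0.05 in edgeR and were called by DESeq2. Higher without overlap were 27.9% of all genes in AAV-ATF6N and 19.1% in AAV-XBP1S. By edgeR's test, Top2a, Ccna2 and Birc5 rose in AAV-ATF6N and Mki67, Ccna2 and Birc5 in AAV-XBP1S. Each of these calls was lost without any 1 of the AAV-ATF6N or AAV-XBP1S libraries (edgeR adjusted p from 0.0707 to 0.378), and without AAV-GFP replicate 1 those of Birc5 in AAV-ATF6N (0.0554) and Mki67 (0.0651) were lost too. Of 5 erythroid markers 4 were in the table and 2 could be tested, the globin genes Hba-a1 and Hba-a2 being listed at 0 in every library. They summed to 40.7 to 41.7 CPM in AAV-ATF6N, 69.5 to 106 in AAV-XBP1S and 130 to 277 in AAV-GFP, and Alas2 fell in AAV-ATF6N (log2 fold change -1.75, edgeR adjusted p = 0.0470), a call lost without any 1 of the AAV-ATF6N or AAV-XBP1S libraries (0.141 to 0.593). The part of these markers in the co-chaperone values was not tested, and in bulk RNA fewer cells of a type and less RNA per cell cannot be told apart.

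By the Pearson correlation of log2 CPM over the 6 libraries, the genes most like each co-chaperone among 9021 compared were Prpf3, Ints3 and Plxdc2 for Dnajc3 (0.9962, 0.9926 and 0.9893) and Ptpn2, Btg2 and Gclm for Dnajb11 (0.9922, 0.9920 and 0.9862). For Dnajb9 they were Ddx6, Cul4b and Zfp944 (0.9836, 0.9777 and 0.9765), and for Sec63 Magt1, Asap2 and Prrc1 (0.9983, 0.9981 and 0.9898). For Dnajc10 they were Appbp2, Pus10 and Capza1 and for Dnajc1 Larp7, Zfp938 and Ap3s1, all at 0.9953 or more. Above 0.95 lay 388 genes for Dnajc1, 241 for Dnajc10, 70 for Dnajc3, 31 for Sec63, 28 for Dnajb11 and 21 for Dnajb9. The values describe these 6 libraries, AAV-GFP replicate 1 among them, and each pair of genes shares the same libraries.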

How the data were processed

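The deposited count table gives whole-number read counts per gene for 6 libraries, and the counted gene length. The submitters' processing notes name STAR, featureCounts and mm10, and no source used here states versions or strand settings. For each factor against AAV-GFP, a second deposited table holds the mean normalized signal, the log2 fold change, scores (its standard error and the Wald statistic) and p-values, per the file headers. That mean was taken over 4 libraries, while DESeq2 was run here on all 6. Values from the deposited table are named where printed. No per-sample column was set aside (0 columns).

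Groups came from the labels. Genes passed edgeR's filterByExpr (count minimum 10). The quasi-likelihood test (edgeR 4.0.16, R 4.3.3, TMM, group as the only term, 6 libraries, 3 residual degrees of freedom) was two-sided, with Benjamini-Hochberg adjustment over 14587 genes and a threshold of 0.05. It was run on simulated counts with the same spread in every group, which the groups here did not have, so that check does not cover the unequal spread. CPM use TMM library sizes; likeness was taken on log2 CPM (prior count 2) over genes of at least 5 CPM. DESeq2 1.42.0 was an alternative. The members and lists were chosen with earlier results of these data known. Named were the 6 members, fixed partners, list genes past the threshold, at most 2 others per list, and the 3 genes most alike. Adgre1 and Hbb-bs were matched through RefSeq synonyms; Hbb-bt was not matched.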

Additional observations from a re-analysis of the deposited data

Results flagged for a closer look

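Hsp90b1, the gene of the ER Hsp90, differed between the responses to the factors by the direct test. It averaged 1026 ± 12.9 CPM in AAV-ATF6N and 263 ± 30.0 CPM in AAV-XBP1S (SD, n = 2 each), with 328 ± 51.9 CPM in AAV-GFP. The log2 fold change of AAV-ATF6N against AAV-XBP1S was 1.97 (SE 0.21, edgeR adjusted p = 0.0337), and each AAV-ATF6N library lay above both AAV-XBP1S libraries. Without any 1 of these 4 libraries the edgeR adjusted p was 0.319 to 0.378, and without either AAV-GFP library the call held (0.00500 and 0.00697). No co-chaperone gene passed that comparison.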

How the results depend on the processing

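The number of genes called was 46 in AAV-XBP1S against AAV-GFP, 75 in AAV-ATF6N against AAV-GFP and 33 in the direct comparison. In the same order it was 484, 573 and 803 with DESeq2, 233, 348 and 458 without a filter, 289, 224 and 606 with the length offset, and 13, 8 and 663 with only the 4 libraries compared. With the replicate block it was 165, 237 and 356. Leaving out 1 library gave 2 to 322, 6 to 3055 and 1 to 717, with both AAV-GFP maxima without AAV-GFP replicate 2 (87 and 107 without replicate 1). Co-chaperone genes called, 0 in each comparison, became 1, 2 and 1 with DESeq2, 0, 1 and 1 without a filter, 0, 0 and 2 with only the 4 libraries compared, and 0, 1 and 0 with the replicate block; leaving out 1 library gave 0, 0 to 3 and 0 to 2. The labels do not say whether the replicate numbers pair the samples. Correlations of deviations were -0.048 (AAV-ATF6N and AAV-XBP1S), -0.0402 (AAV-ATF6N and AAV-GFP) and 0.379 (AAV-XBP1S and AAV-GFP). What lay behind the last value was not tested. The block changed the call of Dnajc3 in AAV-ATF6N against AAV-GFP (edgeR adjusted p = 0.0224) and no other co-chaperone call. Signs turned for Sec63 with the length offset (-0.12 in AAV-ATF6N against AAV-GFP, -0.16 in the direct comparison) and for Dnajc10 in the direct comparison (-0.11 with the offset). Without both libraries with the most Rn45s, where no p-value is given because all spread comes from AAV-ATF6N, Dnajc1 had 0.23 in AAV-XBP1S and 0.0341 in AAV-ATF6N against AAV-GFP, and in the direct comparison Dnajc10 had -0.32 and Sec63 -0.0366. Leaving out 1 library, Dnajc1 ran from -0.53 to 0.40 in AAV-XBP1S and from -0.91 to 0.0343 in AAV-ATF6N against AAV-GFP, and in the direct comparison Dnajc10 ran from -0.36 to 0.46 and Sec63 from -0.0791 to 0.14. The cause was not tested. Where a group keeps 1 library, it is assumed to vary like the others. Of 252 alternative values for co-chaperone log2 fold changes, 14 turned sign and 15 newly passed. Each co-chaperone had at least 1372 counts in each library; the effect of depth was not tested.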

Other observations

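Among J-protein genes outside the ER, Dnajb5 and Dnajb4, which encode cytosolic partners of Hsp70 and are abundant in muscle, stood higher in AAV-ATF6N than in AAV-XBP1S. Dnajb5 had 119.8 and 116 CPM in AAV-ATF6N, 57.2 and 52.5 CPM in AAV-XBP1S and 73.9 and 108 CPM in AAV-GFP. Dnajb4 had 142 and 138 CPM in AAV-ATF6N, 70.2 and 89.3 CPM in AAV-XBP1S and 94.4 and 85.9 CPM in AAV-GFP. The log2 fold changes of AAV-ATF6N against AAV-XBP1S were 1.10 (SE 0.24) and 0.81 (SE 0.21), and neither passed (edgeR adjusted p = 0.111 and 0.159). Both AAV-ATF6N libraries lay above all other libraries in each gene. Of the 30 J-protein genes outside the ER, 11 were higher without overlap in AAV-ATF6N than in AAV-XBP1S (30.1% of all genes), and 4 were lower (26.8%).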
